A study of Homo sapiens with 6 samples.

Results

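Ribosomal DNA holds the repeated units from which RNA polymerase I makes the 45S precursor of the 18S, 5.8S and 28S ribosomal RNAs. UBTF binds these units and holds their chromatin open, the SL1 complex (TBP with TAF1A, TAF1B, TAF1C and TAF1D) marks the promoter, and RRN3 couples polymerase I to SL1 so that a transcript can start. The output of this system sets how many ribosomes a cell can build, and it is high in most cancer cells. The genes described here are 10 of the 56303 in the count table: CH507-513H4.5 and CH507-513H4.3, gene models of chromosome 21 placed inside an 18S pseudogene and an 18S ribosomal RNA gene, and 8 genes of the polymerase I system, UBTF, RRN3, POLR1A, POLR1B, POLR1E, TAF1A, TAF1B and TAF1C. The first 2 were chosen by their fold change in the contrast described below, so their change is given as a description with no test. The other 8 were named by function, though with earlier results of these data known.

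RNA was measured in SW480 cells, an established line from a human colorectal adenocarcinoma, grown in RPMI medium with serum. The 3 shCtrl libraries came from cells with a nonsilencing hairpin (genotype label WT) and the 3 shMORC2 libraries from cells with a hairpin against MORC2, an ATPase of the nucleus that is linked to chromatin compaction. Both lines were made by lentiviral infection and kept as stable puromycin-selected clonal lines, and 1 hairpin was used per group, so the hairpin and the line cannot be told apart from the loss of MORC2. The libraries are numbered 1 to 3 in each group, and no label says whether they came from separate cultures, so p-values measure the spread between these libraries. They held 42092664 to 43434425 counts each, and log2 CPM (counts scaled to a common library size after TMM) correlated at 0.989 to 0.992 within groups and 0.968 to 0.975 between them. MORC2 was at 46.1, 46.4 and 48.8 CPM in shCtrl and 35.0, 29.3 and 27.2 CPM in shMORC2, a log2 fold change of -0.63 (edgeR adjusted p 0.000216, SE 0.10). The contrast was wide: 39.5% of the 21005 genes tested were called at an edgeR adjusted p under 0.05. The colon epithelial markers EPCAM, KRT8, KRT18, KRT19, CDH1 and VIL1 were abundant, whereas CDH17 had 18 to 60 counts per library and CDX1 and LGALS4 had too few to be tested. CDX2 was the only one of the 10 markers called (log2 fold change 0.47, edgeR adjusted p 0.0158). In these bulk libraries, fewer cells of one kind and less RNA per cell cannot be told apart.

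The gene models CH507-513H4.5 and CH507-513H4.3 are annotated as long noncoding RNA genes of 923 bases on the minus strand of chromosome 21 (GRCh38), with the identifiers ENSG00000281383.1 and ENSG00000281181.1 in GENCODE. CH507-513H4.3 (chr21:8437629-8438551) lies wholly inside RNA18SN1, the 18S gene of the unit RNA45SN1, on the opposite strand. It covers bases 754 to 1676 of the 1869 bases of that 18S gene, which is 49.4% of it. CH507-513H4.5 (chr21:8254592-8255514) lies in the same way inside RNA18SP5, which RefSeq lists as an 18S pseudogene, over bases 751 to 1673 of 1863. This pseudogene lies in none of the annotated 45S units. The table has 2 more gene models of this kind, CH507-513H4.4 (chr21:8393419-8394341) inside RNA18SN3 and CH507-513H4.6 (chr21:8210384-8211306) inside RNA18SN2.

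**Figure D1:**
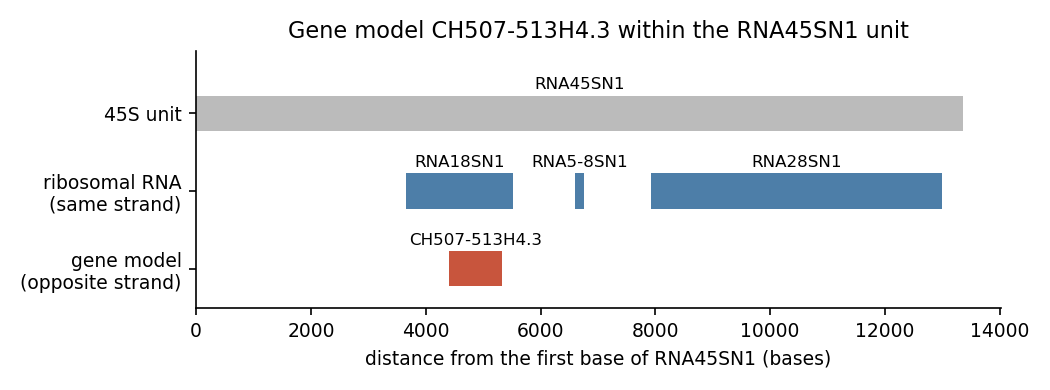
Features of the unit RNA45SN1 by distance in bases from its first base, with the 45S unit in grey, the 18S, 5.8S and 28S ribosomal RNA genes in blue, and the gene model CH507-513H4.3, which is on the opposite strand, in red. The gene model spans 4407 to 5329 bases from the first base of the unit and falls wholly within RNA18SN1.

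The sequences of CH507-513H4.3, CH507-513H4.4 and CH507-513H4.6 were identical over all 923 bases, and this sequence had 7 exact copies in GRCh38, 4 of them on unplaced or unlocalised contigs. CH507-513H4.5 had 1 copy, and it differed from the others by 4 bases, an identity of 99.57%. The differences lay at positions 103 and 105, counted from 1 at the 5′ end of the gene model (substitutions), at position 108 of CH507-513H4.3 (a base absent from CH507-513H4.5) and at position 244 of CH507-513H4.5 (a base absent from CH507-513H4.3). All 4 fall in the stretch of bases 73 to 274, shown here on the strand of the gene models because it is the part by which a read can be placed in one copy or another. CH507-513H4.5 is chr21:8255241-8255442 and CH507-513H4.3 is chr21:8438278-8438479, both minus strand of GRCh38, and capitals mark the bases that differ.
CH507-513H4.5: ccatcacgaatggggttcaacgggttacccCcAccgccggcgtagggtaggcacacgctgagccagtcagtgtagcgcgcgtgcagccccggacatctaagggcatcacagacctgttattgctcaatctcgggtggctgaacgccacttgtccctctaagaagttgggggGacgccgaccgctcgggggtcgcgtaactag
CH507-513H4.3: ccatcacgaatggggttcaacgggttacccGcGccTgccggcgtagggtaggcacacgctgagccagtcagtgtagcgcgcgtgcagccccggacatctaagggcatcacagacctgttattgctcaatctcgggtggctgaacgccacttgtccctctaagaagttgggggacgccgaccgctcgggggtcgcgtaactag

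In the 300 bases beyond the end of the gene model that faces the 5.8S gene, CH507-513H4.5 differed from CH507-513H4.3 at 13 positions, and in the 300 bases on the other side at 9. CH507-513H4.3 differed from CH507-513H4.4 and CH507-513H4.6 at 6 positions on the 5.8S side and at 0 on the other. Reads within the gene models therefore place CH507-513H4.5 apart from the other 3 only where they cross the capitals above, and cannot separate the other 3 from each other. How reads with several equal positions were counted is not given in the sources used here.

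CH507-513H4.5 held 5152, 5763 and 5140 counts in shCtrl and 196014, 225831 and 155814 counts in shMORC2. Every shMORC2 library was far above every shCtrl library, and the spread within each group was small beside the gap. Scaled to library size this was 126 ± 9.43 CPM (SD, n = 3) for shCtrl against 4501 ± 886 CPM (SD, n = 3) for shMORC2. The ratio was 35.6 and the fitted log2 fold change 5.16. Per length, its mean rose from 137 to 4856 RPKM (reads scaled by exon length and library total), which moved it from rank 302 to rank 9 among all genes of the table. RPKM divides by all 923 bases of the gene model, whereas few of these bases tell the copies apart. Its RPKM and rank may therefore not be comparable with those of other genes, and the same holds for CH507-513H4.3.

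CH507-513H4.3 held 593, 715 and 685 counts in shCtrl and 19514, 24214 and 16775 counts in shMORC2. The groups were again fully apart, with shMORC2 replicate 2 highest and replicate 3 lowest, as in CH507-513H4.5. The ratio was 30.1 and the fitted log2 fold change 4.91. Its mean went from 17.0 to 509 RPKM, and its rank from 2696 to 86. Among the genes tested, the log2 fold changes of CH507-513H4.5 and CH507-513H4.3 ranked 7 and 9 from the highest. Of all genes tested, 19.9% were called higher in shMORC2. Nothing is read from that share for these 2 genes, which were selected on this contrast.

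The other 2 copies held few counts. CH507-513H4.6 had 0, 0 and 1 counts in shCtrl and 19, 21 and 8 in shMORC2, under the filter for testing. CH507-513H4.4 had 7, 23 and 28 counts in shCtrl and 40, 54 and 28 in shMORC2. Its groups met at 28 counts, and its log2 fold change of 1.05 did not pass the test (edgeR adjusted p 0.07). The copies with identical sequence thus carried very unequal counts, 19514 against 40 and 19 in shMORC2 replicate 1, for example. Reads within these copies cannot be told apart, so the counts do not give the level of each copy.

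**Figure D2:**
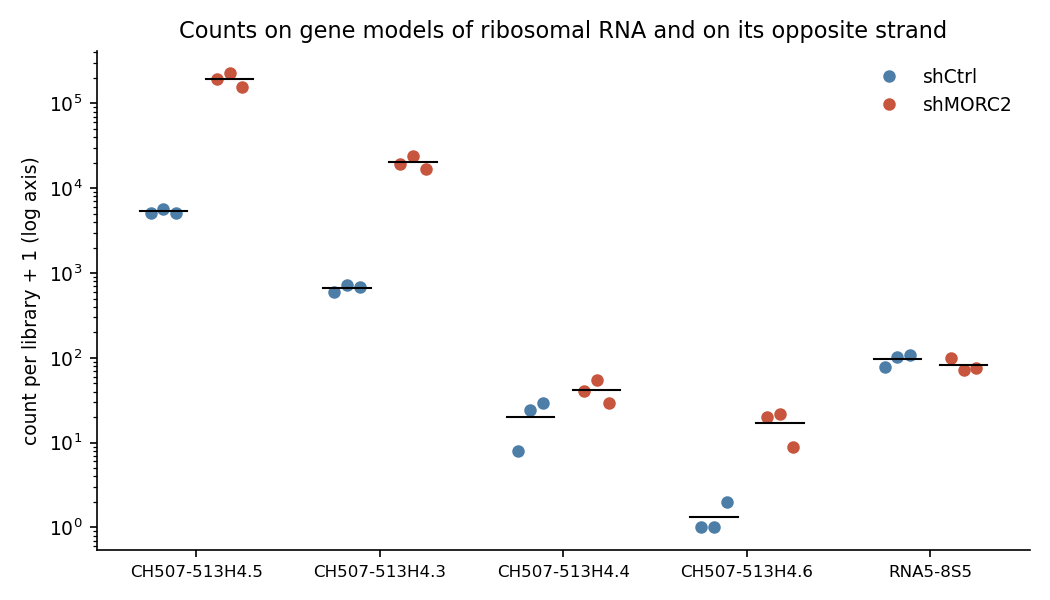
Counts plus 1 on a log axis for the 4 gene models inside 18S genes or the 18S pseudogene and for RNA5-8S5, with 1 point per library, shCtrl in blue, shMORC2 in red, and black bars at the group means. CH507-513H4.5 and CH507-513H4.3 sit far higher in all 3 shMORC2 libraries, while the points of RNA5-8S5 overlap between 71 and 108 counts.

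In sum, the 4 copies took 0.0135% to 0.0154% of all counts in shCtrl and 0.400% to 0.589% in shMORC2. CH507-513H4.5 made up 87.8% to 89.6% of this sum in shCtrl and 90.3% to 90.9% in shMORC2. For each count on CH507-513H4.3 there were 8.69, 8.06 and 7.50 counts on CH507-513H4.5 in shCtrl, and 10.0, 9.33 and 9.29 in shMORC2. The split between the 2 copies thus stayed within a narrow range while their sum changed by a large factor, and this range did not overlap between the groups.

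Few other gene models of the table report on the same units. On chromosome 21, no exon of the table lay over a 28S gene, and none lay over an 18S gene on its own strand. Copies on other contigs were not checked for this. RNA5-8S5, which combines 5.8S loci and a 5.8S pseudogene on the strand of the ribosomal RNAs, had 78, 102 and 108 counts in shCtrl and 99, 71 and 75 in shMORC2. These values overlapped, with a log2 fold change of -0.25 (edgeR adjusted p 0.351, SE 0.21, approximate 95% interval -0.66 to 0.15). In libraries of polyadenylated RNA, so few counts do not measure the output of the units. The microRNA gene models MIR3648-1 and MIR3687-1, which lie ahead of the 18S gene in the unit RNA45SN2, and their second copies MIR3648-2 and MIR3687-2 summed to 6, 3 and 4 counts in shCtrl and to 0 in each shMORC2 library, which is near the floor of 3 counts in both groups. The spliced gene models CH507-513H4.1 and CH507-528H12.1, whose spans reach across units, had log2 fold changes of -0.22 (edgeR adjusted p 0.431) and 0.48 (edgeR adjusted p 0.0838).

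The 5S ribosomal RNA is made elsewhere in the genome by polymerase III. The 513 gene models of 5S genes and pseudogenes summed to 6.73 to 7.61 CPM in shCtrl and 6.51 to 7.19 CPM in shMORC2, ranges that overlap. Of the 8 that could be tested, RNA5SP244 was called higher and RNA5SP37 lower, where 39.5% of all genes were called. The ribosomal RNAs of mitochondria, which have their own polymerase, moved in opposite directions: MT-RNR1 rose by 0.31 (edgeR adjusted p 0.0235) and MT-RNR2 fell by 0.85 on the log2 scale (edgeR adjusted p 5.41e-05).

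Values that bear on RNA selection moved with the contrast as well. The libraries were made from polyadenylated RNA, and the 89 replication-dependent histone genes, whose messages mostly lack a poly(A) tail, summed to 150 to 152 CPM in shCtrl and 104 to 116 CPM in shMORC2. The 7SK and 7SL RNAs with their copies summed to 85.0, 87.1 and 479 CPM in shCtrl and 27.0 to 31.4 CPM in shMORC2, with shCtrl replicate 3 standing apart. Both classes were lower in shMORC2. Their part in the result was not tested.

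The strand of the reads could not be taken from the table. The kit marks strand, but the setting used in counting is not given in the sources used here. In the table, 703 genes have all exons under exons of a gene on the other strand. Of the 53 whose partner carried at least 1 count per base, 42 (79.2%) had a count per base of at least 0.1 of the partner's, with a median ratio of 0.571. RP5-940J5.9, which lies under GAPDH, carried 74.0 counts per base against 41.0 for GAPDH itself. Counts on both CH507 gene models may thus be reads of the 18S ribosomal RNA or of a transcript antisense to it, which cannot be told apart in these counts.

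Profiles over the 6 libraries were compared with those of the 14335 genes tested that averaged 100 counts or more, each on log2(CPM + 0.1) and centred on its own mean. The profile most like that of CH507-513H4.5 was that of CH507-513H4.3, with a root mean square difference of 0.14. Next came GZMB, which encodes a serine protease of cytotoxic lymphocytes, at 0.55, and LEF1, a transcription factor of the Wnt pathway, at 0.61. For CH507-513H4.3 the same genes followed, GZMB at 0.52 and LEF1 at 0.54. The leukocyte markers PTPRC and CD3E never exceeded 6 counts, and the 7 markers of leukocytes, endothelium and fibroblasts summed to 31.8 to 35.8 CPM in shCtrl and 39.0 to 40.4 CPM in shMORC2. With groups of 3 libraries, this likeness mostly reflects the size of the difference between groups.

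Of the 8 polymerase I genes, POLR1B, TAF1A, TAF1C and RRN3 were called lower in shMORC2 and none was called higher. Over all genes tested, 19.6% were called lower. In 5 of the 8 genes all 3 shMORC2 libraries were below all 3 shCtrl libraries, which held for 25.1% of the genes tested. The median log2 fold change of the 8 was -0.23, beside -0.0056 over all genes. All 8 passed the filter on low counts.

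POLR1A encodes the largest subunit of polymerase I and, with the second largest, POLR1B, forms its catalytic centre. POLR1B was at 32.1, 34.2 and 30.4 CPM in shCtrl and 20.7, 21.5 and 23.1 CPM in shMORC2. The groups were well apart, with a log2 fold change of -0.57 (edgeR adjusted p 0.000196, SE 0.09), or 67.4% of the control level. POLR1A was at 83.0, 71.8 and 71.4 CPM in shCtrl and 75.1, 62.6 and 71.4 CPM in shMORC2. Replicate 1 was highest in both groups and the groups overlapped. Its log2 fold change of -0.11 (edgeR adjusted p 0.342, SE 0.09) had an approximate 95% interval of -0.29 to 0.06. That interval lies wholly above the fitted value of POLR1B, and the difference between the genes was not tested.

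POLR1E, a subunit that acts with CD3EAP in initiation and elongation, was at 29.3, 33.8 and 34.0 CPM in shCtrl and 28.7, 28.7 and 26.9 CPM in shMORC2. The groups did not overlap, but shCtrl replicate 1 lay close to shMORC2. The log2 fold change of -0.20 (SE 0.09) was not called (edgeR adjusted p 0.0747), was called with the replicate number as a block (edgeR adjusted p 0.0257), and was -0.27 without shCtrl replicate 1 (edgeR adjusted p 0.0259).

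The 3 promoter factors of SL1 in this set differed in their values. TAF1A was at 10.9, 11.6 and 13.2 CPM in shCtrl and 7.30, 7.78 and 6.53 CPM in shMORC2. All 3 shMORC2 libraries were well below the controls, with a log2 fold change of -0.72 (edgeR adjusted p 0.000354, SE 0.12), the largest fall of the 8 genes. TAF1C, which contacts RRN3 in assembly of the initiation complex, was at 22.4, 21.2 and 18.7 CPM in shCtrl and 15.8, 14.2 and 15.9 CPM in shMORC2. It was called lower (log2 fold change -0.44, edgeR adjusted p 0.00301, SE 0.10). TAF1B, a TFIIB-like subunit, was at 13.3, 12.8 and 12.9 CPM in shCtrl and 13.5, 13.4 and 12.5 CPM in shMORC2. Its groups overlapped, with a log2 fold change of 0.02 (edgeR adjusted p 0.906, SE 0.09, approximate 95% interval -0.17 to 0.20). The approximate intervals of TAF1A (-0.95 to -0.49) and TAF1C (-0.63 to -0.25) lay below that of TAF1B. The difference between the 3 genes was not tested.

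UBTF was at 158, 136 and 137 CPM in shCtrl and 156, 134 and 150 CPM in shMORC2. The libraries of both groups covered the same range. The log2 fold change was 0.03 (edgeR adjusted p 0.793, SE 0.09, approximate 95% interval -0.14 to 0.20). RRN3 was at 44.1, 40.8 and 40.3 CPM in shCtrl and 37.1, 36.6 and 30.6 CPM in shMORC2. All 3 shMORC2 libraries were lower, replicate 3 most, and the log2 fold change was -0.26 (edgeR adjusted p 0.0327, SE 0.09). This call was lost in 5 of the 6 fits that left out 1 library. The edgeR adjusted p was then 0.0883, 0.0600 and 0.0615 without shCtrl replicates 1, 2 and 3, and 0.0556 and 0.162 without shMORC2 replicates 2 and 3.

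**Figure D3:**
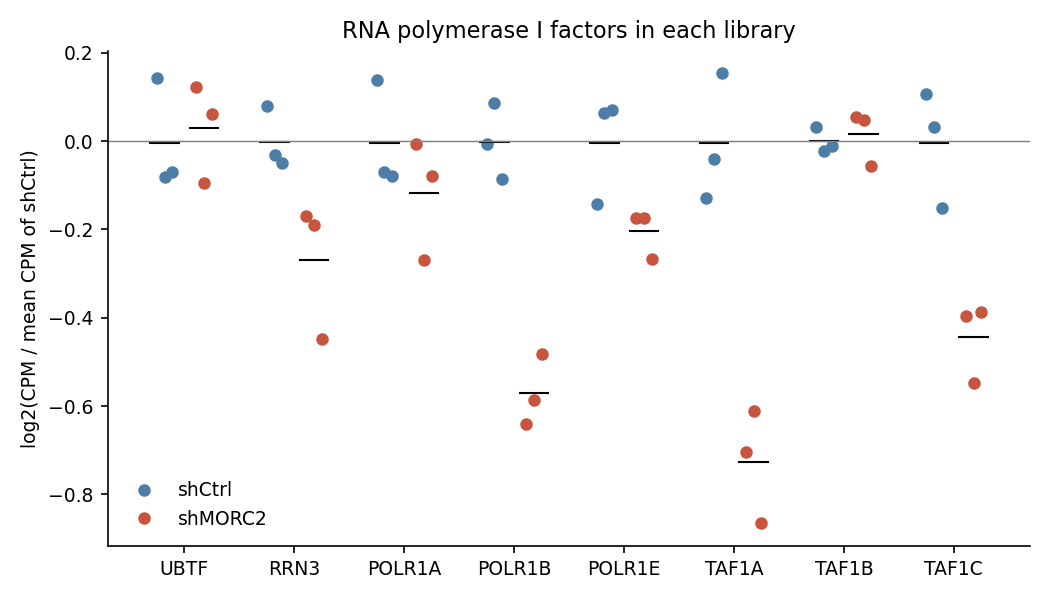
log2 of CPM in each library over the mean CPM of the 3 shCtrl libraries, for the 8 polymerase I genes, with shCtrl in blue, shMORC2 in red and black bars at the mean of the plotted values. TAF1A, POLR1B and TAF1C stand clear of the controls in all 3 shMORC2 libraries, whereas UBTF, POLR1A and TAF1B overlap with them.

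Per annotated exon length, which can exceed the length of the expressed message, the order of the 8 genes is approximate. UBTF was highest in both groups (20.6 ± 2.28 RPKM in shCtrl, SD, n = 3). In shCtrl it was followed by POLR1E (12.9 RPKM), RRN3 (10.1), POLR1A (5.59), POLR1B (5.11), TAF1A (4.11), TAF1C (3.74) and TAF1B (3.20), all means in RPKM. The library values of POLR1A and POLR1B overlapped, as did those of TAF1A and TAF1C and of TAF1C and TAF1B, so the order within these pairs is not set. In shMORC2 the first 5 means stood in the same order, POLR1A no longer overlapped with POLR1B (5.14 against 3.42 RPKM), POLR1B overlapped with TAF1B (3.22 RPKM), and TAF1A came last at 2.48 RPKM, with values that overlapped those of TAF1C (2.74 RPKM). CH507-513H4.3 lay between UBTF and POLR1E in shCtrl (17.0 RPKM) and above all 8 in shMORC2 (509 RPKM). Its RPKM may not be comparable with theirs, since reads within it cannot be told from those of its identical copies.

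Some of these genes share exon bases with a gene on the other strand. TAF1C shared 8.07% of its exon bases with DNAAF1, TAF1A 3.77% with TAF1A-AS1, and UBTF 3.09% with RP5-882C2.2 and 0.529% with CTB-175E5.7. The mean counts of these neighbours were between 31.8 and 96.0 per library.

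The remaining genes of the system were taken from lists by role. Of the 13 polymerase I subunits tested, 5 were called lower and 4 higher, beside 19.6% and 19.9% of all genes tested, with a median log2 fold change of -0.11. Of the 6 subunits found in polymerase I alone, 4 were called lower (POLR1B, TWISTNB at -0.52, ZNRD1 at -0.51 and CD3EAP at -0.43) and 0 higher, with a median of -0.47. Of the 2 shared with polymerase III, POLR1D was called lower (-0.25) and POLR1C was not called (-0.05). Of the 5 shared by polymerases I, II and III, 4 were called higher and 0 lower, with a median of 0.82: POLR2K (1.03), POLR2L (0.95), POLR2F (0.82) and POLR2E (0.27), all as log2 fold changes. POLR2H was not called (-0.03). This grouping within the list was made after the values were seen, and the difference between its groups was not tested.

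POLR2K and POLR2L are small zinc-binding subunits. POLR2K was at 12.7, 10.3 and 12.9 CPM in shCtrl and 23.9, 25.9 and 23.8 CPM in shMORC2. Its groups were far apart, with 205% of the control level in shMORC2 (edgeR adjusted p 7.53e-06). Of 7 subunits particular to polymerase II, 6 were called higher and 0 lower, beside 19.9% of all genes called higher, with a median log2 fold change of 0.38. POLR2I (0.94) and POLR2J (0.81) rose most, and POLR2B was not called (-0.17), though all 7 were called with the replicate number as a block. In the polymerase III list of 20, 4 were called higher (20.0%) and 5 lower (25.0%), close to the 19.9% and 19.6% over all genes, with a median of -0.05. GTF3C6 (0.68) and POLR3K (0.47) rose most, and BDP1 (-0.81) and POLR3E (-0.58) fell most.

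Gene length moved with the direction of change over the whole table. Among genes tested that averaged 100 counts or more, the 3587 with the shortest exon length (up to 2587 bases) had a median log2 fold change of 0.11, with 31.8% called higher and 16.6% lower. In the 3583 longest (from 6963 bases) the median was -0.12, with 15.2% called higher and 34.2% lower. The subunits shared by the 3 polymerases spanned 1142 to 7042 bases and those of polymerase I alone 2512 to 13519 bases. POLR2K (1711 bases), POLR2L (1142 bases) and POLR1E (2512 bases) were among the shortest genes, whereas POLR2F (7042 bases) was among the longest. The part of length in these results was not tested.

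In the list of 10 initiation and termination factors, 4 were called lower and 1 higher, beside 19.6% and 19.9% of all genes tested, with a median log2 fold change of -0.16. TAF1D, the fourth SL1-specific subunit, was at 113, 137 and 114 CPM in shCtrl and 85.9, 80.0 and 73.5 CPM in shMORC2, without overlap (edgeR adjusted p 0.000218, log2 fold change -0.60, SE 0.09). The SL1 subunits shared with other complexes, TBP (-0.12) and TAF12 (0.15), were not called, nor was the terminator protein TTF1 (-0.19). PTRF, which acts in transcript release and also coats caveolae, was the one called higher (0.36, edgeR adjusted p 0.00380).

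Regulators of ribosomal DNA chromatin set which units are silent. Of 20 tested, 7 were called lower (35.0%) and 0 higher, beside 19.6% and 19.9% of all genes tested. The median log2 fold change was -0.05. The share called in either direction, 35.0%, was below the 39.5% over all genes. SIRT7, a deacetylase that stimulates polymerase I transcription, was at 84.5, 95.7 and 95.2 CPM in shCtrl and 47.0, 55.9 and 56.9 CPM in shMORC2, far below the controls (edgeR adjusted p 2.48e-05, log2 fold change -0.79, SE 0.09). RRP8 (-0.45, edgeR adjusted p 0.000479) and SIRT1 (-0.38, edgeR adjusted p 0.0399), which are both parts of the energy-dependent silencing complex eNoSC, were lower too. SUV39H1, of the same complex, was not called (-0.03, edgeR adjusted p 0.803). The others called lower were KDM2B (-0.44), ATRX (-0.37), DNMT3B (-0.34) and KDM2A (-0.25). BAZ2A, the core of the silencing complex NoRC, had a log2 fold change of -0.20 and was not called (edgeR adjusted p 0.0837), and DNMT1 was at 0.02 (edgeR adjusted p 0.851). The count of 7 fell to 4 without shCtrl replicate 2 and to 3 without shMORC2 replicate 2.

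Pre-ribosomal RNA processing follows transcription. Of 64 genes in this list, 25 were called lower (39.1%) and 9 higher (14.1%), beside 19.6% and 19.9% of all genes tested, with a median log2 fold change of -0.14. UTP18, of the small subunit processome, fell by 0.64 on the log2 scale (edgeR adjusted p 1.63e-05) and PELP1, of a complex that releases large subunits, fell by 0.59 (edgeR adjusted p 5.76e-05). NOP10 (0.93) and NHP2 (0.41), which are core proteins of the H/ACA particles that guide pseudouridylation, were called higher. GAR1 (0.31) of the same particle and FBL (0.33), the methyltransferase of C/D particles, were called higher too. DKC1 of the H/ACA particles was not called (-0.03, edgeR adjusted p 0.82). Of the other C/D particle proteins, NOP56 (-0.12) and NOP58 (-0.21) were not called and SNU13 (0.25) was called higher. NOP10 had an exon length of 554 bases. The 34 calls became 22 without shMORC2 replicate 2.

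Upstream of polymerase I, 1 of 8 regulators was called lower and 1 higher, or 25.0% called beside 39.5% of all genes tested. MYC, which promotes ribosome production at many steps, was at 387, 463 and 400 CPM in shCtrl and 219, 196 and 223 CPM in shMORC2. Every shMORC2 library was far below the controls, with a log2 fold change of -0.97 (edgeR adjusted p 3.47e-06, SE 0.09), or 51.1% of the control level. MTOR, a kinase that links nutrients to RRN3 activity, was called higher (log2 fold change 0.44, edgeR adjusted p 0.000391). RB1, RBL2, CDKN2A, RPS6KB1, CSNK2A1 and CSNK2A2 had log2 fold changes from -0.13 to 0.21 and were not called.

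**Figure D4:**
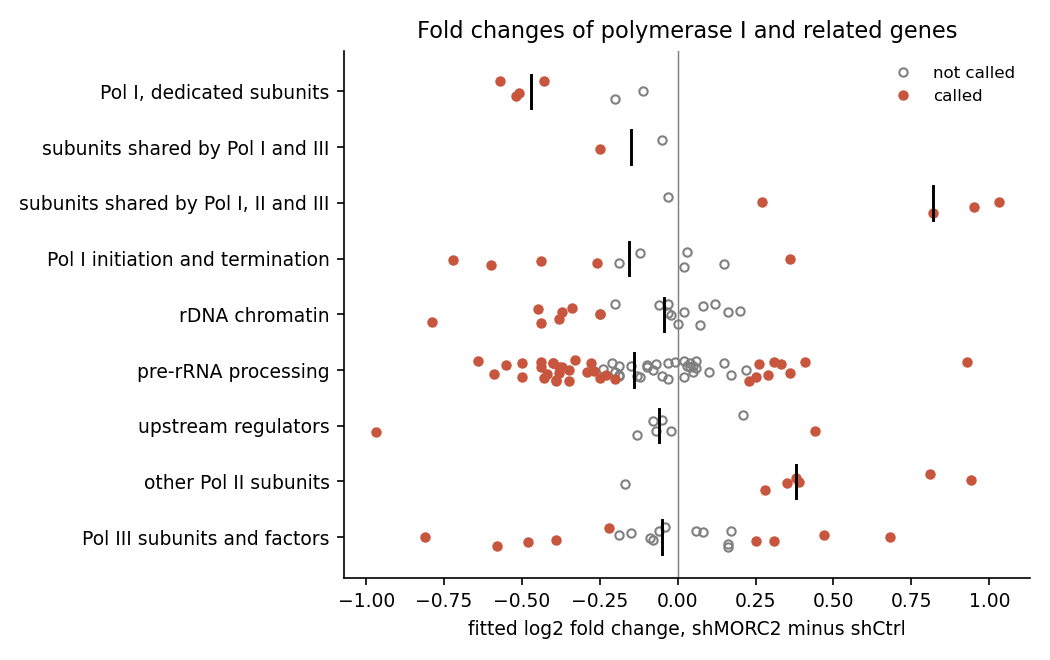
Fitted log2 fold changes (shMORC2 minus shCtrl) of the genes in each list, 1 point per gene, filled red where called at an edgeR adjusted p under 0.05 and open grey where not, with black bars at the medians. Subunits of polymerase I alone lie below 0 (median -0.47), those shared by 3 polymerases mostly above 0 (median 0.82), and the processing list is spread around -0.14.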

How the data were processed

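RNA-seq libraries of 3 shCtrl and 3 shMORC2 SW480 samples were grouped by their labels. The authors deposited raw counts per gene symbol and RPKM values, which equalled counts over exon length and library total for 100% of values (tolerance 0.1%). The submitters' processing notes name Trimmomatic 0.36, STAR 2.5.3a, Subread 1.5.1 with featureCounts, edgeR 3.12.1 and GRCh38. The annotation release, the strand setting and the use of molecular identifiers are not given in the sources used here. Splicing tables, which hold inclusion levels with the authors' own p-values and adjusted p-values for comparisons of unnamed groups, were not used.

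The test was the quasi-likelihood test of edgeR 4.0.16 under R 4.3.3, on the counts as deposited (filter by filterByExpr, TMM, group as the model, Benjamini-Hochberg over 21005 genes, adjusted p under 0.05). The SE is the size of the log2 fold change over the square root of F. Intervals were set from this SE on a normal curve, without the limited degrees of freedom of the test. They are therefore approximate and narrower than the test allows. For KRT19 the interval was -0.52 to -0.01, whereas its edgeR p before adjustment was 0.0626. Calls rest on the adjusted p and not on the intervals. Of 56303 genes, 19690 had no counts. The fit was tested on simulated data with 200 changed genes. That is far fewer than were called here, so the simulation does not show the error rates for these data. RPKM compared levels between genes only. With 3 libraries per group, SDs give the precision. Sequences came from the GRCh38 genome, with ribosomal RNA positions from RefSeq (GRCh38.p14) and identifiers from GENCODE v44, read with pysam 0.24.0 and compared with edlib 1.3.9.

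Libraries with the same number deviated together weakly (correlations 0.215, 0.111 and 0.102). No label pairs them, and a pairing by number would rest on these values alone. The model held group only, and the replicate number was used as a block in an alternative. Alternatives were the replicate block, DESeq2 1.42.0, its size factors in edgeR, library size without TMM, library sizes without mitochondrial and ribosomal DNA genes, 2 other filters, and leaving out each library. Beyond the 10 genes, up to 2 called genes with the largest rise and fall per list (mean of at least 100 counts), gene models of ribosomal RNA, MORC2 and the 3 nearest profiles were named by rule. Others (the remaining subunits, SL1 members, chromatin, particle and upstream genes given by name, and RP5-940J5.9) were chosen after their values were seen. The genes and lists were chosen with earlier results of these data known. 1 further upstream gene was left out of its list and is not reported here.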

Additional observations from a re-analysis of the deposited data

How the results depend on the processing

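Over 13 alternatives, the log2 fold change ran from 5.00 to 5.29 for CH507-513H4.5 and from 4.73 to 5.03 for CH507-513H4.3. POLR1B, TAF1A and TAF1C kept their direction and call in all 13. The count of polymerase I genes called was 3 to 5, with 5 under the replicate block, which added POLR1E (edgeR adjusted p 0.0257) and changed no other call of the 8. Genes called numbered 10287 under the block and 6268 to 8433 with 1 library left out. Under the block, calls rose from 7 to 10 in the ribosomal DNA chromatin list, from 34 to 44 in the processing list and from 9 to 12 in the polymerase III list. With 1 library left out, calls ran from 3 to 8 in the ribosomal DNA chromatin list and from 22 to 36 in the processing list. Across the same fits the log2 fold change ran from -0.01 to 0.11 for UBTF and from -0.00 to 0.06 for TAF1B. It was -0.01 for UBTF without shCtrl replicate 2 and without shMORC2 replicate 1, and -0.00 for TAF1B without shMORC2 replicate 1, each with the sign opposite to that with all libraries. The cause was not tested. DESeq2 gave no adjusted p for 14909 genes. CH507-513H4.4, CH507-513H4.6 and RNA5-8S5 had low counts, and copy placement and strand bear on all 4 gene models inside 18S sequence.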
